A study of Mus musculus with 26 samples.

Results

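The mitochondrial ribosomal protein genes are the nuclear genes that encode the protein part of the ribosome inside mitochondria. They were taken as all protein-coding genes of the RefSeq annotation of GRCm38 whose symbol is Mrpl or Mrps followed by digits. This gave 78 of 21521 located protein-coding genes, 49 with an Mrpl symbol (large subunit) and 29 with an Mrps symbol (small subunit). They lie on 17 chromosomes, with 11 on chromosome 11, 8 on chromosome 17 and none on chromosomes 12, 18 and X. Micro-C, which maps contacts between chromatin segments cut by micrococcal nuclease, was run on 26 libraries of mouse RAD21-dTAG cells (Bruce-4 derived, C57BL/6J) in the G1 phase. The RAD21-dTAG cell line carries, in every group, a tag by which the cohesin subunit RAD21 can be degraded, and whether it is a single clone is not given in the sources used here. The only group used here is the 6 libraries of embryonic stem cells (ESCs) grown in serum/2i/LIF and given 0.05% v/v DMSO, the vehicle. The ESCs given 500 nM dTAG (6 libraries) or 20 µM A485 (6 libraries), and the epiblast-like cells given DMSO (4 libraries) or dTAG (4 libraries), were not analysed here. The data are a list of 3515 domain boundaries in mm10, each an interval of 25 kb, made by the authors from the pooled DMSO libraries. The list has no score, no replicates and no contact counts, so depth is unknown and the values below carry no replicate error. It holds no expression either, so the labelled cell type could not be set against its markers.

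Topological domains are stretches of chromosome whose segments contact each other more often than they contact segments beyond their boundaries, and cohesin and CTCF are known for holding many of these boundaries in place. The mitochondrial ribosome translates the few messenger RNAs of the mitochondrial genome, all of which encode subunits of the oxidative phosphorylation complexes. Its RNAs come from the mitochondrial genome, whereas its proteins are encoded in the nucleus by housekeeping genes scattered over many chromosomes, made in the cytosol and imported. Small subunit proteins help to bind and decode the messenger, and large subunit proteins surround the site of peptide bond formation and the exit tunnel.

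A gene is called near a boundary here when either of its ends lies inside the interval or within 10 kb of it. By this measure 18 of the 78 mitoribosomal protein genes (23.1%, 95% Wilson interval 15.1 to 33.6, counting error only) were near a boundary, at 17 different boundaries. The background over all protein-coding genes was 18.3%, which lies inside that interval. An end lay inside a boundary for 13 of the 78, or 16.7%, beside 11.7% of all protein-coding genes. Within 50 kb the order turned, with 25 of the 78 (32.1%) beside 35.6% of all genes. The median distance was 117 kb (quartiles 12.8 and 214 kb), beside 98.9 kb (quartiles 22.8 and 229 kb) for all protein-coding genes. By gene midpoint the medians were almost equal (123.1 beside 122.9 kb). From interval centres the members' median was again the larger (129 beside 111 kb), and among genes of up to 10 kb the order turned (129 beside 145 kb). Over genes of all lengths, the share near a boundary was therefore close to the background. Among genes of up to 10 kb it was 20.0%, beside 11.96% of all such genes. No test of these differences was made.

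Promoters of 7 members near a boundary are shown, chosen because the start stands alone in its boundary or faces the start of another gene. The starts of Mrpl46, Mrps7 and Mrpl42 also face that of another gene, but their promoters are not printed. Strand and start site came from the RefSeq promoter table (GRCm38.p6), which held 69 of the 78 members, 15 of the 18 near a boundary and 11 of the 13 with an end inside one. Each sequence runs from 250 bases before the start to 50 bases after it, 5′ to 3′ on the strand of the gene. Capitals mark exact matches, on either strand, to the motifs of ETS factors, NRF1, YY1, Sp factors and the TATA box, which are spelled out with their counts after the sequences. Adjoining or overlapping matches appear as 1 run. The first set holds the starts inside a boundary that has no other protein-coding gene end near it, those of Mrps9 (chr1:42850983-42851282, plus strand), Mrpl3 (chr9:105053018-105053317, plus), Mrps33 (chr6:39810887-39811186, minus) and Mrps30 (chr13:118387203-118387502, minus).
Mrps9: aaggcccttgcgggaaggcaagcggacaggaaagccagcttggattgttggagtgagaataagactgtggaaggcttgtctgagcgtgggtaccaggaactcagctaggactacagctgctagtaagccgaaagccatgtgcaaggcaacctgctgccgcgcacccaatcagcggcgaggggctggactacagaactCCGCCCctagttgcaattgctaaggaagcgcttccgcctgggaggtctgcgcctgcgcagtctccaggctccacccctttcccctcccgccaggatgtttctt
Mrpl3: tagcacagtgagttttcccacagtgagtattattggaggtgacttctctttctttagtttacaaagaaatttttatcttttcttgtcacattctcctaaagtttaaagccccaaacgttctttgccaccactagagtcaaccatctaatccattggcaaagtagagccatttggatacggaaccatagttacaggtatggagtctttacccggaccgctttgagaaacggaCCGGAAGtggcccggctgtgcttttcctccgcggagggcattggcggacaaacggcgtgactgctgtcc
Mrps33: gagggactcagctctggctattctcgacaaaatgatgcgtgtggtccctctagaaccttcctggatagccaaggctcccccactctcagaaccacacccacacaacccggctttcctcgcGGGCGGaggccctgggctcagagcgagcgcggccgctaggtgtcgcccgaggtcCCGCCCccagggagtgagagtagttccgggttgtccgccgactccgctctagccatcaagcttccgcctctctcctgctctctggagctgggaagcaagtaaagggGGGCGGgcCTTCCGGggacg
Mrps30: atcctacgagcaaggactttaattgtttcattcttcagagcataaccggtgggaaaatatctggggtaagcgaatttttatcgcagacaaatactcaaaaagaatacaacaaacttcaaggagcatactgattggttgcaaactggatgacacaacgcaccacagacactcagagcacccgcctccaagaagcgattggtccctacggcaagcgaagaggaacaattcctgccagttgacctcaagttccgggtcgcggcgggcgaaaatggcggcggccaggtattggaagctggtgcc

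The next set holds starts that face the start of another protein-coding gene on the opposite strand, so that each stretch also covers ground before the neighbour. Mrps27 (chr13:99344536-99344835, plus) faces Ptcd2, which encodes a mitochondrial RNA-binding protein of the pentatricopeptide repeat class. Mrps18b (chr17:35916391-35916690, minus) faces Ppp1r10, which encodes a regulatory subunit of protein phosphatase 1. Mrps11 (chr7:78782881-78783180, plus) faces Mrpl46, another member.
Mrps27: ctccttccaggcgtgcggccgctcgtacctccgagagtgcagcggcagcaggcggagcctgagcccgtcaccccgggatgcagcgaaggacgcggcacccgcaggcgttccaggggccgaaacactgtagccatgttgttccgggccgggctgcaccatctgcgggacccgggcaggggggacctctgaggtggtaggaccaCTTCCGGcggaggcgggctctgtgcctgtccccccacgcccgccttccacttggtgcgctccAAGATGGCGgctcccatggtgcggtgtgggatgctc
Mrps18b: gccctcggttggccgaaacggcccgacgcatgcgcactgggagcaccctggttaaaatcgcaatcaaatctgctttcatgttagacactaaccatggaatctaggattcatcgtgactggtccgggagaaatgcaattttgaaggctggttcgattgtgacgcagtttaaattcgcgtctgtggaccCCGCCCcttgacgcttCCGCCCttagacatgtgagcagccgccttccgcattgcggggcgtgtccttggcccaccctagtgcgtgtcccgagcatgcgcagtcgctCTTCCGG
Mrps11: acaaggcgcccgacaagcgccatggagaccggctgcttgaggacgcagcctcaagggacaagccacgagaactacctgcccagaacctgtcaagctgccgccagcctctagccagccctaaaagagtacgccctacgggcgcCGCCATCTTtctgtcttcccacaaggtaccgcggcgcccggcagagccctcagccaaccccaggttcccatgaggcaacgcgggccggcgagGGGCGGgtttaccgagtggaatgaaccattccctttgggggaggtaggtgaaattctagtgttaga

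Across the 69 member promoters, the ETS core CCGGAAG was found in 24 (34.8%), beside 12.1% of the 17274 promoters of protein-coding genes, and in 5 of the 15 promoters of members near a boundary. The YY1 letters AAGATGGCG were found in 8 member promoters (11.6%, beside 1.92% of all), among them those of Mrps11, Mrps27 and Mrpl42 near a boundary. The palindromic NRF1 motif was found in 3 (4.35%, beside 1.35%), those of Mrpl9, Mrpl32 and Mrpl39, none of them near a boundary. The Sp letters GGGCGG were found in 34 (49.3%, beside 46.9%). The TATA box, searched as TATAAA, was found in 4 (5.80%, beside 13.4%). Of the sequences printed, that of Mrps30 held none of these letters and that of Mrps33 held 4 matches. Both strands were searched, and the matches describe letters, not bound sites.

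By subunit, the share near a boundary was higher for Mrps than for Mrpl symbols. Of the 49 Mrpl genes, 8 were near a boundary (16.3%, Wilson interval 8.51 to 29.04), beside the background of 18.3%. Of the 29 Mrps genes, 10 were near (34.5%, Wilson interval 19.9 to 52.7). The Mrps median distance was 66.2 kb and the Mrpl median 129 kb. The intervals of the subunit shares overlap, the members of a subunit are not replicates, and the difference was not tested. Symbols do not follow the structure everywhere: the products of Mrps30 and Mrps18a sit in the large subunit, and that of Mrps36 belongs to the 2-oxoglutarate dehydrogenase complex. Sorted that way, a choice made after seeing the data, 9 of 51 large (17.6%) and 9 of 26 small subunit genes (34.6%) were near.

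**Figure D1:**
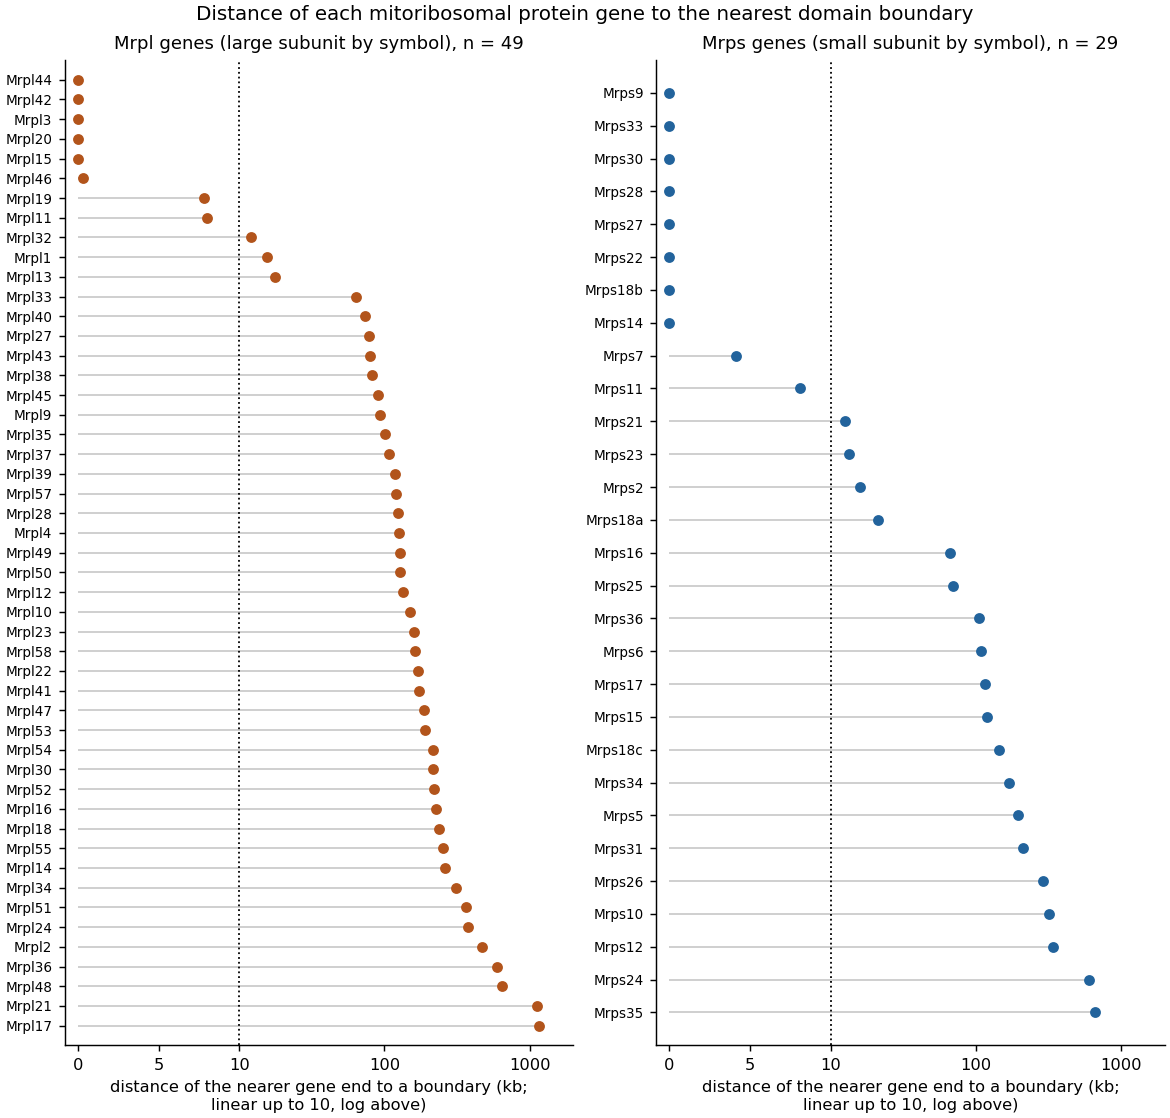
Distance in kb from the nearer gene end to the nearest boundary interval for each of the 49 Mrpl genes (left) and 29 Mrps genes (right), on an axis that is linear up to 10 kb and logarithmic above; the dotted line marks 10 kb. Of the Mrpl genes 8 and of the Mrps genes 10 lie left of the line, and no gene of either subunit lies between 21.1 and 64.0 kb.

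Among the 29 small subunit genes, 8 had an end inside a boundary (27.6%, beside 11.7% of all protein-coding genes). Mrps33 and Mrps18b lay wholly inside one. Mrps18b encodes 1 of 3 related S18 proteins, and its paralogues lay farther out, Mrps18a at 21.1 kb and Mrps18c at 146 kb. Mrps9, the counterpart of bacterial ribosomal protein S9, started inside the boundary at chr1:42850001-42875000 and ran 30.7 kb beyond it. Mrps27, a pentatricopeptide repeat protein gene of 70.8 kb, started inside the boundary at chr13:99325001-99350000 and ran 65.6 kb beyond it. Mrps14, the counterpart of bacterial S14, and Mrps22, a protein specific to the mitochondrial ribosome, had only their 3′ end inside, with starts 4.79 and 1.68 kb outside. Mrps28, the longest member at 122 kb, had an end inside the boundary at chr3:8900001-8925000 and no strand in the table. Mrps30 also lay wholly inside a boundary, at chr13:118375001-118400000. Just outside an interval lay Mrps7, at 4.14 kb, and Mrps11, at 8.13 kb, which encode the counterparts of bacterial S7 and S11.

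Among the 49 large subunit genes, 5 had an end inside a boundary (10.2%, beside 11.7% of all protein-coding genes). Mrpl44, which encodes a protein with a ribonuclease III-like domain, and Mrpl20, the counterpart of bacterial L20, lay wholly inside. Mrpl3, the counterpart of bacterial L3, started inside the boundary at chr9:105050001-105075000 and reached 2.47 kb past its far edge, so its 24.2 kb covered most of the interval. Mrpl42 had its start inside the boundary at chr10:95500001-95525000, and Mrpl15 had an end inside the boundary at chr1:4750001-4775000 with no strand in the table. Mrpl46, at 0.341 kb, Mrpl19, at 7.83 kb, and Mrpl11, at 8.01 kb, lay just outside an interval. Mrps11 at 8.13 kb was the last member within 10 kb, and the next were Mrpl32 at 11.96 kb and Mrps21 at 12.6 kb. Mrpl1 was not counted as near although a boundary lay wholly inside it: its 57.2 kb spanned chr5:96225001-96250000, with its ends 15.5 and 16.7 kb outside.

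Where strand was known, the 5′ end was at the boundary for more members than the 3′ end. The 5′ end was inside a boundary for 9 of 69 members (13.0%, beside 7.05% of 17274 protein-coding genes with a strand) and the 3′ end for 7 (10.1%, beside 7.20%). Within 10 kb the counts were 14 for 5′ ends (20.3%, beside 12.2%) and 11 for 3′ ends (15.9%, beside 12.6%). All 9 small subunit genes that were near a boundary and had a strand had their 5′ end near it, and 6 had their 3′ end near it (66.7%). Among all 3129 near protein-coding genes with a strand these shares were 67.5% for 5′ ends and 69.3% for 3′ ends. The lists most like the members also had high 5′ shares. Among 21 near cytoplasmic ribosomal protein genes with a strand, the 5′ and 3′ shares were both 90.5%. Among 24 near respiratory chain subunit genes they were 87.5% and 91.7%. Of the 6 near large subunit genes with a strand, 5 had their 5′ end and 5 their 3′ end near it.

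Of the 18 near members, 5 had a boundary with no other protein-coding gene end in it or within 10 kb, Mrpl15, Mrpl3, Mrps9, Mrps33 and Mrps30. The other 13 shared theirs. The same share over all near protein-coding genes was not computed, so whether 5 of 18 is usual is not known. Mrpl20 lay between Ankrd65 and Ccnl2, a cyclin L gene, at the boundary chr4:155800001-155825000. Aurkaip1, which encodes a mitoribosomal protein of the small subunit, lay 6.27 kb beyond the edge of that boundary. Mrps18b shared its boundary with 4 genes, among them Atat1, which encodes the tubulin acetyltransferase. Mrps7 lay beside the boundary that holds an end of Nup85, a nuclear pore gene, and one of Gga3. Mrps14 shared its boundary with Cacybp and Rabgap1l, Mrpl44 with Wdfy1 and Serpine2, and Mrps22 met the coatomer gene Copb2 tail to tail. The start of Mrpl42 faced that of Ube2n, a ubiquitin-conjugating enzyme gene, in the same interval on the opposite strand. Mrpl11 ended 8.01 kb before a boundary that holds the 3′ end of Npas4, an activity-dependent transcription factor gene of neurons. Mrps28 had Tpd52 as its partner, 1.53 kb outside the interval. Mrpl19 had Gcfc2, which spanned the whole interval and overlapped Mrpl19, with its nearer end 9.098 kb outside.

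**Figure D2:**
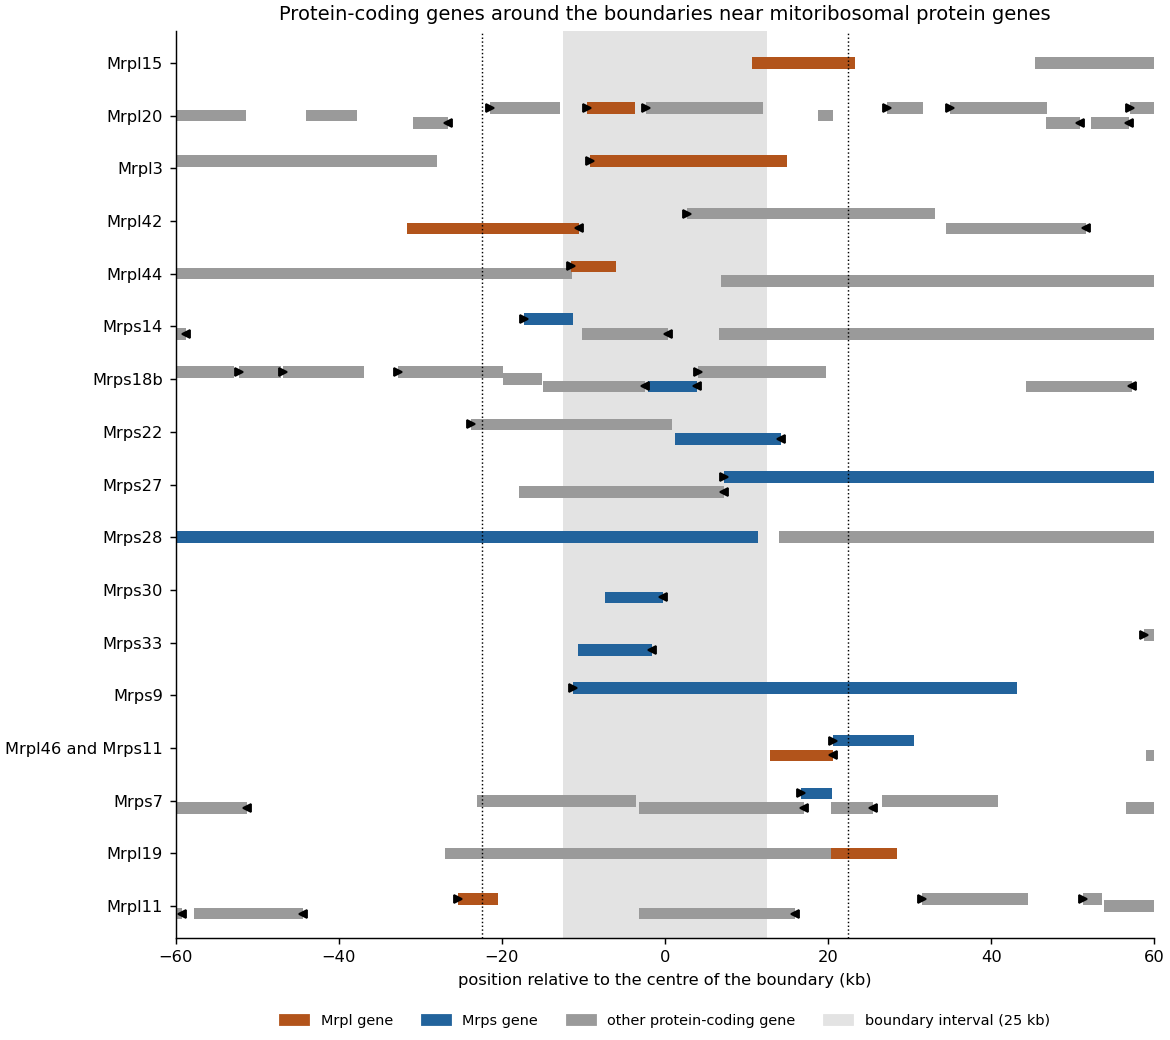
Protein-coding genes from 60 kb before to 60 kb after the centre of each of the 17 boundaries near a member, with 1 row per boundary; the grey band is the boundary interval and the dotted lines mark 10 kb beyond it. Bars are genes, arrowheads mark gene starts, and bars on the row's midline without an arrowhead have no strand in the table. The rows of Mrpl3, Mrps9, Mrps30 and Mrps33 have a gene start in the band with no other gene end within the dotted lines.

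Members often started back to back with a neighbour. With the 5′ ends of opposite-strand genes at most 1000 bases apart, 27 of 69 members (39.1%) formed a head-to-head pair, beside 10.4% of 17274 protein-coding genes. The share was 44.2% of 43 Mrpl genes and 30.8% of 26 Mrps genes. Among respiratory chain subunit genes it was 33.3% and among cytoplasmic ribosomal protein genes 15.6%. Of the 27, 5 were near a boundary (18.5%, beside 27.5% of the 1795 head-to-head protein-coding genes and 18.1% of all 17274). They were Mrps18b with Ppp1r10 (71 bases between), Mrps27 with Ptcd2 (88 bases), Mrps7 with Gga3 (overlapping at their starts), and Mrps11 and Mrpl46 with each other (41 bases). Among the pairs farther out, named after their values were seen, Mrps12 was paired with Sars2, a mitochondrial seryl-tRNA synthetase gene (135 bases), Mrpl36 with Ndufs6 (20 bases) and Mrpl47 with Ndufb5 (301 bases), which encode subunits of respiratory complex I. They lay 340, 593 and 188 kb from a boundary. Genes without a strand in the table could not be paired, so these counts are lower limits.

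The members near a boundary were mostly those with few protein-coding neighbours. Genes were divided into classes by the number of other protein-coding genes whose midpoints lay within 500 kb. Of the 23 members with 0 to 10 such neighbours, 13 were near a boundary (56.5%), beside 24.9% of the 7487 genes of that class. Of the 23 members with 11 to 22 neighbours only Mrps22 was near (4.35%, beside 17.7%), and of the 32 members with 23 to 71 neighbours 4 were, Mrpl20, Mrps18b, Mrps7 and Mrpl11 (12.5%, beside 11.9%). In the sparse class, 7 of 9 Mrps genes and 6 of 14 Mrpl genes were near. Mrps30 had a single neighbour, Mrpl19 had 2, and Mrpl20, Mrps7, Mrpl11 and Mrps18b had 42 or 43. For the comparison lists the counts were more even: 8 of 25, 10 of 24 and 10 of 35 cytoplasmic ribosomal protein genes were near in the sparse, middle and dense classes, and 8 of 25, 9 of 25 and 10 of 35 respiratory chain subunit genes. The differences between lists were not tested.

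**Figure D3:**
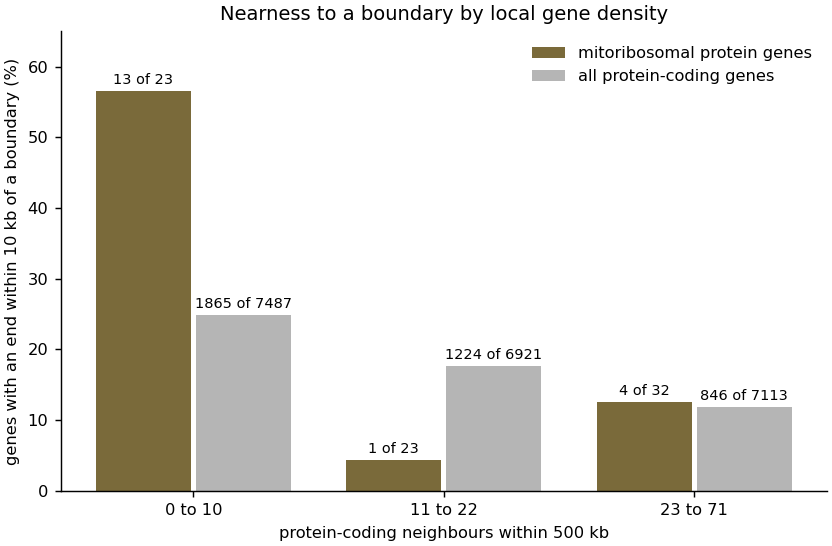
Share of genes with an end inside a boundary or within 10 kb, in percent, by the number of protein-coding neighbours within 500 kb, for the 78 mitoribosomal protein genes and all 21521 protein-coding genes, with counts above the bars. The members stand at 56.5% in the sparse class and at 4.35% and 12.5% in the others, and all genes at 24.9%, 17.7% and 11.9%.

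Short genes are less often near a boundary in the whole genome, and the members are short, with a median of 7.69 kb beside 17.4 kb. Among genes of up to 9.03 kb, 9 of 50 members were near, beside 11.7% of 7174 genes. In the middle class, up to 31.7 kb, 6 of 22 were near (27.3%, beside 20.4%), and among longer genes 3 of 6, Mrps9, Mrps27 and Mrps28 (50.0%, beside 22.8%). The share of the members was above that of all genes in each of these classes of length.

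The distances fell into 2 stretches with none between. Counting outward from the boundaries, 25 members lay within 21.1 kb, the last of them Mrps18a, and the next was Mrpl33 at 64.0 kb. In that stretch lay 3457 of all protein-coding genes (16.1%), 11 of 84 cytoplasmic ribosomal protein genes and 13 of 85 respiratory chain subunit genes. Its limits were set by the members' own values after they were seen. From 100 to 250 kb lay 29 members (37.2%, beside 27.3% of all genes), 21 of them Mrpl genes. Of the distance ranges counted, which differ in width, it held the most Mrpl genes. It also held the most of all genes and of respiratory chain subunit genes (27 of 85). Of the 84 cytoplasmic ribosomal protein genes, 16 lay inside a boundary and 12 in this range. Mrpl12, which encodes a protein of the factor-binding stalk, lay there at 135 kb, and Mrpl58, whose product can free peptides from stalled ribosomes, at 162 kb.

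**Figure D4:**
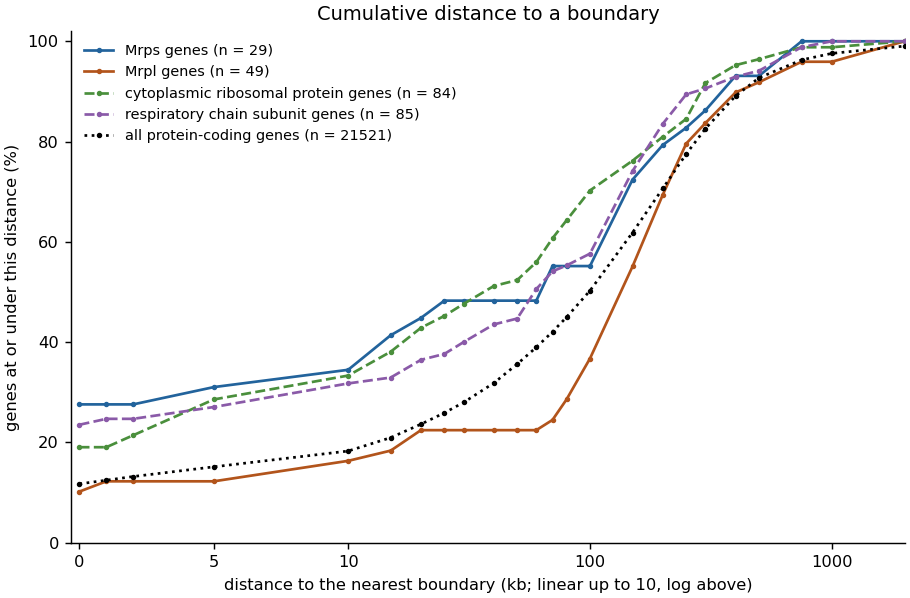
Percent of genes at or under a given distance from the nearest boundary (kb, linear up to 10 and logarithmic above) for 29 Mrps genes, 49 Mrpl genes, 84 cytoplasmic ribosomal protein genes, 85 respiratory chain subunit genes and 21521 protein-coding genes. At 10 kb the Mrps genes stand at 34.5% and the Mrpl genes at 16.3%, and the lines of both subunits are flat from 25 to 60 kb.

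At the far end, 6 members lay over 500 kb from a boundary (7.69%, beside 7.29% of all genes). Mrpl17, 1154 kb away, lay in the longest domain that holds a member, chr7:104650001-107175000, 2525 kb with 77 protein-coding genes that are mainly olfactory receptor genes. Mrpl21, 1132 kb away, lay before the first boundary of chromosome 19 and so in no domain. Mrps35, Mrpl48, Mrps24 and Mrpl36 lay 668, 642, 604 and 593 kb away, in domains of 1800, 1350, 1525 and 1300 kb. The largest distances were thus split between the subunits, with 4 Mrpl and 2 Mrps genes.

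By domain, members and all genes had the same median length. The midpoints of 69 members lay in 66 domains with a median length of 675 kb (quartiles 450 and 925 kb), and the median for all protein-coding genes was also 675 kb (quartiles 425 and 1050 kb). The domains of the members held a median of 16 protein-coding genes, beside 12 for all genes. Of these members, 18 (26.1%, beside 25.02% of all genes) lay within 0.1 of the domain's length from one of its edges, 10 of 25 Mrps genes and 8 of 44 Mrpl genes (18.2%). The midpoints of 8 other members lay in boundary intervals. By chromosome, 4 of the 5 members on chromosome 1 were near a boundary (Mrpl15, Mrps9, Mrpl44 and Mrps14), where 20.5% of all protein-coding genes were. On chromosome 11 it was 1 of 11 members (all genes 17.1%) and on chromosome 17 it was 1 of 8 (all genes 16.0%). These chromosomes were picked after their counts were seen, and their difference was not tested. In 3 domains there were members in pairs. Mrpl46 and Mrps11 shared the shortest, chr7:78775001-78900000, 125 kb with Det1 as the only other protein-coding gene. Mrpl14 shared the 725 kb domain from chr17:45425001 with Mrps18a, and Mrpl2 shared the 1525 kb domain from chr17:46175001 with Mrps10, so that a single boundary, 21.1 kb from Mrps18a, separated these pairs. Mrpl39, named here after its values were seen, shared a 300 kb domain on chromosome 16 with Jam2, Atp5j and Gabpa, which encodes an ETS factor known as a regulator of nuclear genes for mitochondrial proteins.

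The other genes of mitochondrial translation were near a boundary at a similar rate, with 18 of 68 (26.5%, Wilson interval 17.4 to 38.0, beside 18.3%) and a median distance of 55.6 kb. Of 15 translation factor genes 6 were near: Mtif2 (initiation), Gfm2 (recycling) and Mtrf1l (release) had an end inside a boundary, Slirp and Guf1 lay 0.077 and 0.349 kb from one, and Lrpprc, whose product binds mitochondrial messengers together with that of Slirp, lay 9.21 kb away. Of 28 ribosome assembly and RNA modification genes 8 were near, among them Nsun4 and Tfb1m, which encode methyltransferases of the small subunit RNA, and the helicase gene Dhx30, each with an end inside. Of 20 genes of aminoacyl-tRNA synthesis 3 were near, with Nars2 at 0.839 kb and Gatb at 0.899 kb. Of 5 mitoribosomal protein genes with other symbols only Aurkaip1 was near, and Dap3 lay 596 kb and Chchd1 346 kb away. Within 50 kb the machinery genes stood at 48.5%, beside 32.1% of the 78 mitoribosomal protein genes and 35.6% of all protein-coding genes.

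Set beside the lists most like them, the mitoribosomal protein genes stood at a lower share near a boundary, 23.1%. Of 84 cytoplasmic ribosomal protein genes 28 were near (33.3%, median distance 36.8 kb), and of 85 respiratory chain subunit genes 27 (31.8%, median 56.6 kb). The Mrps share of 34.5% was close to both, and the Mrpl share of 16.3% was below both. These differences were not tested.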

How the data were processed

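The authors deposited a list of boundary intervals (chromosome, start, end; no score) for the pooled DMSO-treated ESC libraries. Per the submitters' processing notes, reads were processed with BWA 0.7.17 and Juicer 1.22.01 on mm10. How boundaries were called is not given in the sources used here. The other 4 groups were not analysed here.

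Positions are counted from 1. Genes came from RefSeq GRCm38.p6 (mm10); 345 genes of scaffolds and patches, 110 of them protein-coding, were left out, and no member was among them. Domains run from the end of a boundary to the start of the next, and a gene is placed by its midpoint. Strand and starts came from the RefSeq promoter table (most upstream start per gene; 17274 of 21521 genes). Cytoplasmic ribosomal and respiratory chain lists were made by symbol pattern, and the machinery list by hand (69 symbols, 68 located, since Ict1 is the member Mrpl58).

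The members and lists were chosen with earlier results of these data known. No chance test was made: each count stands beside all protein-coding genes. All members and machinery genes could be named, other genes where they share a member's boundary or the shortest or longest domain, or are named as chosen later. Distances and domains were tested on simulated data against direct search. Scripts ran in Python 3.11.15 with pandas 2.3.3 and numpy 2.4.6; intervals came from scipy 1.17.1 and figures from matplotlib 3.10.9.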

Additional observations from a re-analysis of the deposited data

How the results depend on the processing

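The count of 18 members near a boundary stayed within 1.5 times with no window (13), a 50 kb window (25), midpoints (14), the listed gene start (14 of 69), members under 100 kb apart merged (17 of 77 loci), without chromosome 1 (14 of 73) and without Mrps36 (18 of 77). Among genes of up to 10 kb it was 11 of 55 (20.0%, beside 11.96% of all such genes). The 8 Mrpl genes became 5 with no window (10.2%), 5 of 43 by gene start (11.6%) and 5 of 38 among genes of up to 10 kb (13.2%). Among those short genes the 10 Mrps genes became 6 of 17 (35.3%). The 18 machinery genes became 11 with no window (16.2%) and 33 with a 50 kb window (48.5%). They became 10 of 53 by gene start (18.9%) and 6 of 26 among genes of up to 10 kb (23.1%). All protein-coding genes stood at 11.7% with no window, 35.6% with a 50 kb window, 12.2% by gene start and 11.96% among genes of up to 10 kb. The Mrps share stayed above the Mrpl share in each of these settings. The members' share was above that of all genes with no window, by midpoint, by gene start and among short genes. It was below with a 50 kb window (32.1% beside 35.6%). Without chromosome 1 it was 19.2%, beside 18.3% of all genes on all chromosomes. With merging, 22.1% of member loci were near, beside 49.2% of the loci of all genes. These shares are of unlike units, since 78 members became 77 loci and 21521 genes became 2768. Merged cytoplasmic ribosomal protein and respiratory chain lists stood at 33.8% and 32.5%. Alternatives chosen after seeing the data were the subunits by structure, leaving out Mrps36 and those of the density classes, where of 23 sparse members 10 were near with no window (all sparse genes 16.2%), 10 by midpoint (12.7%), 16 with a 50 kb window (46.5%), 14 with a 250 kb radius (25.4%) and 12 with a 1000 kb radius (24.5%). The median distance of the members ran from 117 to 129 kb, beside 111 kb for all genes from interval centres, 122.9 kb by midpoint and 145 kb among genes of up to 10 kb, and the median domain length stayed at 675 kb. No paired analysis was possible because the list is pooled over replicates, and none could be left out. Contact depth is unknown, and a 25 kb interval does not resolve which of several gene ends in it lies at the boundary itself.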
